A study of Mus musculus with 6 samples.

Results

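Interleukin-1 (IL-1) and IL-18 are proinflammatory cytokines of 1 gene family, and 10 genes for their ligands, inhibitors and receptors are described here. They were chosen by symbol in the deposited counts (Il1a, Il1b, Il1rn, Il1r1, Il1r2, Il1rap, Il1rl1, Il18, Il18bp and Il18rap). Each symbol matched 1 of the 46603 genes counted, and all 10 were among the 15440 genes with enough reads to be tested. The libraries come from CD11B+ cells, which carry the integrin alpha M chain and are mostly myeloid but can include NK and B cells, isolated with magnetic beads from the kidneys of male mice 10 to 12 weeks old. All mice had bilateral ischemia-reperfusion injury (IRI-AKI), with clamping of both kidney pedicles for 28 minutes, and were studied 3 days later. PTEC DN RAR mice (genotype PEPCK CRE+; Rosa26-LSL-RARaT403X, 3 mice) express a dominant negative retinoic acid receptor in proximal tubular epithelial cells (PTECs), where PEPCK-Cre is active. Cre- control mice (PEPCK CRE-; Rosa26-LSL-RARaT403X, 3 mice) carry the same Rosa26 allele, which stays silent without Cre. The genetic change was therefore directed at the tubule and not at CD11B+ cells, although transcripts of tubule markers were also counted in these libraries. No uninjured mice are among these libraries, so values describe injured kidneys only.

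IL-1α and IL-1β bind the receptor IL-1R1, which then recruits the coreceptor IL-1RAcP (encoded by Il1rap) and signals through MyD88 and IRAK kinases to NF-κB. The system is held in check by IL-1Ra (Il1rn), a ligand-like protein that occupies IL-1R1 without signaling, and by IL-1R2, a decoy receptor that binds ligand but lacks the intracellular signaling domain. IL-18 acts through IL-18R1 and the coreceptor encoded by Il18rap and is neutralized by IL-18 binding protein (Il18bp), while ST2 (Il1rl1) is the receptor for IL-33 and shares IL-1RAcP. IL-1β and IL-18 are made as precursors that caspase-1 cleaves in the inflammasome, so that transcript levels do not give the amount of active cytokine. In injured kidneys, macrophages and neutrophils are known sources of IL-1β, and tubular epithelium is a known source of IL-18.

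Between 29318041 and 46517005 reads were counted on genes per library, and 3 reads corresponded to between 0.0645 and 0.102 CPM (counts scaled to the same total in each library). The sort was checked by its defining transcripts. Itgam, which encodes CD11B itself, measured 1737, 1959 and 1995 CPM in Cre- controls, against 1366, 1303 and 980 CPM in PTEC DN RAR mice, a log2 fold change of -0.64 (SE 0.14, adjusted p = 0.00818 by edgeR). The pan-leukocyte gene Ptprc and the macrophage gene Adgre1 overlapped between genotypes, with log2 fold changes of -0.11 and 0.09 (adjusted p = 0.534 and 0.626 by edgeR). Of further macrophage genes, named after their values were seen, Cd68 was lower without overlap (log2 fold change -0.44, SE 0.11, adjusted p = 0.0116 by edgeR). Csf1r overlapped (-0.02, adjusted p = 0.909 by edgeR). Rara, the receptor gene that the dominant negative allele derives from, measured between 35.3 and 45.5 CPM in Cre- controls and between 30.8 and 37.6 CPM in PTEC DN RAR mice, and reads of the transgene are not listed separately. The share of mitochondrial counts was 5.03% to 8.77% in Cre- controls, below the 10.38% to 12.08% of PTEC DN RAR mice, and their part in the differences below was not tested. Because Itgam itself differed, the fold changes below were also computed with libraries scaled on Itgam. That scaling, chosen after its level was seen, moved the median of all genes on the log2 scale from 0.04 to 0.69 and left 139 genes lower and 9380 higher.

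Counting genes with an adjusted p under 0.05 (edgeR), 6 of the 10 were lower and 1 was higher in PTEC DN RAR mice. Of all 15440 genes tested, 17.1% were lower, 23.6% were higher and 40.6% were called in either direction by the same rule. A call of lower with a change of at least 2-fold was made for 1 of the 10, Il1rn, and for 2.14% of all genes tested. The median log2 fold change of the 10 genes was -0.55, beside 0.04 for all genes tested. In 5 of the 10 every PTEC DN RAR library lay below every Cre- control library and in 1 above, arrangements found in 24.2% and 29.2% of all genes tested. When libraries were scaled on pan-leukocyte genes and not by TMM (trimmed mean of M values, the scaling used otherwise), 5 of the 10 were lower and 1 was higher, beside 741 and 4773 of all genes. With scaling on Itgam, 1 was lower and 2 were higher. The sign of Il1rap, Il18bp and Il18rap turned from negative to positive under the Itgam scaling. These are bulk libraries, in which fewer cells of a type and less RNA per cell cannot be told apart.

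**Figure D1:**
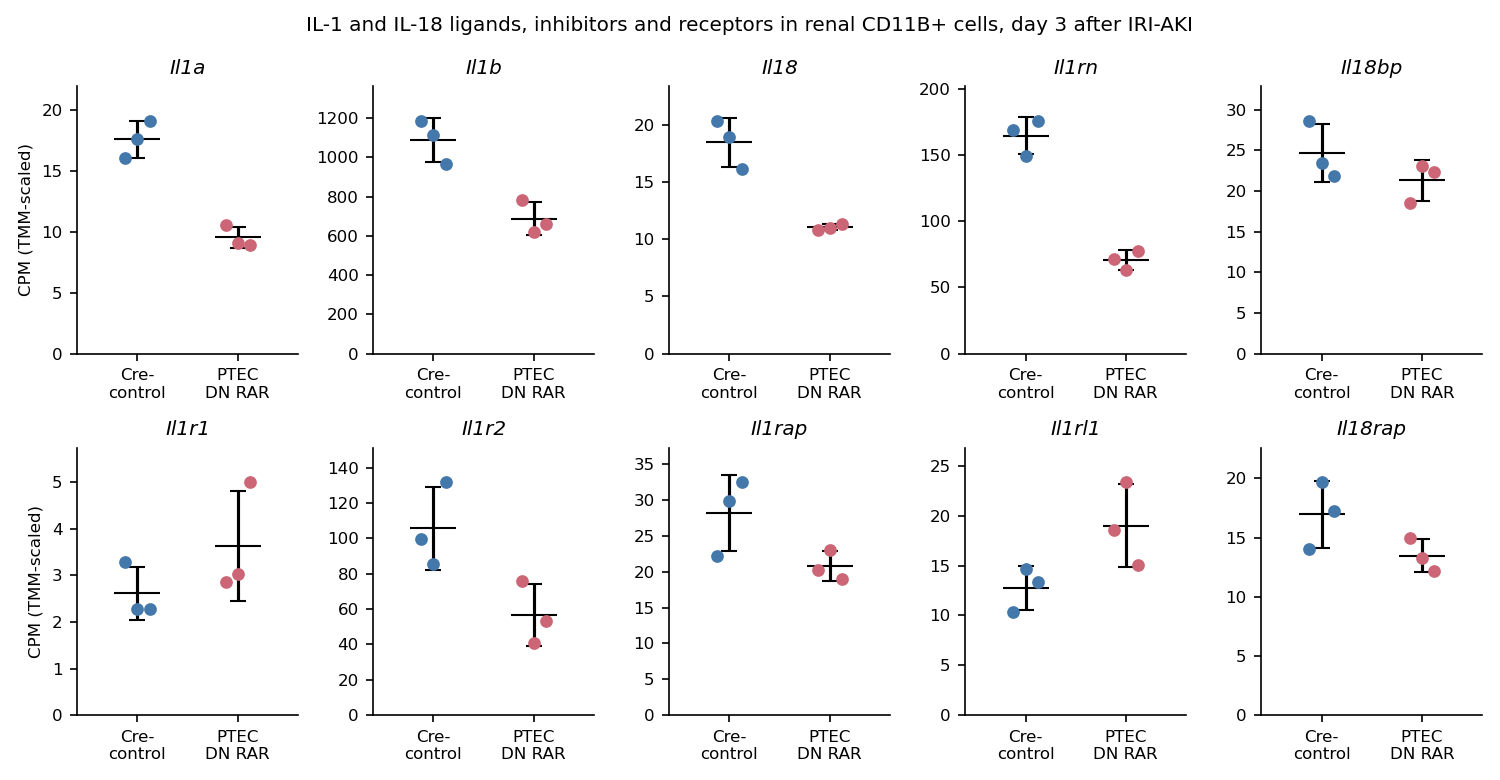
Each panel plots the level of 1 gene in CPM after TMM scaling for the 3 Cre- control libraries (blue) and the 3 PTEC DN RAR libraries (red), with the mean (long bar) and SD (error bar) and an axis that starts at 0. Il1a, Il1b, Il18, Il1rn and Il1r2 lay lower in every PTEC DN RAR library, Il1rl1 lay higher in every one, and Il18bp, Il1r1, Il1rap and Il18rap overlapped.

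All 3 agonist ligands were lower in PTEC DN RAR mice. Il1b (ENSMUSG00000027398), which encodes IL-1β, lies on chromosome 2 of GRCm38 from 129364570 to 129371139 on the minus strand. It measured 1186, 1115 and 964 CPM in Cre- controls, against 783, 622 and 658 CPM in PTEC DN RAR mice. The lowest control was above the highest PTEC DN RAR library, and the log2 fold change was -0.66 (SE 0.13, adjusted p = 0.00408 by edgeR), a fall to 0.632 of the control level. Il1a (ENSMUSG00000027399, chromosome 2 from 129299610 to 129309972, minus strand) encodes IL-1α, a ligand of the same receptor that is active without cleavage and is also released from dying cells. It lies 54.6 kb from Il1b and measured 16.1, 17.7 and 19.1 CPM in Cre- controls, against 10.5, 9.12 and 8.96 CPM in PTEC DN RAR mice. The log2 fold change was -0.89 (SE 0.13, adjusted p = 0.00126 by edgeR), again without overlap. Of the exonic bases of Il1a, 11.2% also belong to Gm14023 on the other strand, and whether counting used strand is not given in the sources used here.

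Il18 (ENSMUSG00000039217, chromosome 9 from 50554827 to 50581840) encodes IL-18, which drives interferon-γ production by lymphocytes. It measured 20.3, 18.9 and 16.1 CPM in Cre- controls, against 10.8, 10.98 and 11.3 CPM in PTEC DN RAR mice. The PTEC DN RAR libraries lay close together and below all controls, with a log2 fold change of -0.74 (SE 0.12, adjusted p = 0.00237 by edgeR). Tubule cells also make IL-18, and all 16 proximal tubule markers were higher in the same libraries, beside 23.6% of all genes tested. Their summed level ranged from 787 to 1030 CPM in Cre- controls and from 2590 to 4050 CPM in PTEC DN RAR mice, and the part of these cells in the Il18 values was not tested. With each library left out in turn, the log2 fold changes stayed between -0.79 and -0.60 for Il1b, between -0.96 and -0.86 for Il1a and between -0.88 and -0.67 for Il18, and each passed the threshold every time. With scaling on Itgam they were -0.01, -0.22 and -0.08 and did not pass (adjusted p = 0.96, 0.413 and 0.782 by edgeR), beside a median of 0.69 for all genes.

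The bases upstream of the starts of Il1b, Il1a and Il1rn are shown as examples of the 6 genes called lower. Sequences are the 250 bases before the RefSeq start on GRCm38.p6, in the direction of transcription. Capitals mark matches on either strand to a TATA box (TATAAA), an AP-1 motif (TGANTCA), a C/EBP motif (TTNNGNAA) or a κB motif (GGGNNNTTCC). Il1b spans chr2:129371140-129371389 on the minus strand, Il1a chr2:129309973-129310222 on the minus strand, and Il1rn chr2:24345121-24345370 on the plus strand, upstream of the most downstream of its 3 RefSeq starts.
Il1b: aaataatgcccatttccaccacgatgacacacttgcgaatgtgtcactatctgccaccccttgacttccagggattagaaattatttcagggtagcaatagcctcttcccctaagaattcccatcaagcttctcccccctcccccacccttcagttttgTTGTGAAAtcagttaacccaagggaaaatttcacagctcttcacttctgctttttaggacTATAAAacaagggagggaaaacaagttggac
Il1a: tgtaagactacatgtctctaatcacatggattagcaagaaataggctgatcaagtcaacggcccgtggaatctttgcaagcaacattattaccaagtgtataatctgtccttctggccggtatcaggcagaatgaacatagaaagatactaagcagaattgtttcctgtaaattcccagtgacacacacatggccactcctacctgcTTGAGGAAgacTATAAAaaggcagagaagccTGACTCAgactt
Il1rn: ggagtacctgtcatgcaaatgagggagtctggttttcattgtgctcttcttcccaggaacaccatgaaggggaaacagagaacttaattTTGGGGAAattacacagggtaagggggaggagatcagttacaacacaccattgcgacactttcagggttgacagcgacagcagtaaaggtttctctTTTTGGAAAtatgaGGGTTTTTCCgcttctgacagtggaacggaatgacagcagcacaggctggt
Il1b and Il1a each held a TATA box, which begins 31 and 32 bases before the start, and such a match was found in 12.4% of 32851 windows of the same length. A C/EBP match was found in each of the 3 windows shown and in 36.8% of all windows, but in 0 windows of the other genes called lower, Il18, Il1r2 and Il1rap. Il1a also held an AP-1 match (6.7% of windows), and this start of Il1rn held a κB match at 51 bases before it (4.6% of windows). The other starts of Il1rn differed, since the most upstream window held 1 AP-1 match and 0 C/EBP or κB matches, and the middle one held 1 C/EBP and 0 κB matches. In the Il1a window no capitals are shared by 2 motifs, whereas in Il1rn a pair of C/EBP matches overlap. Of the 14 windows that RefSeq gives for the 10 genes, 3 held a TATA box, 2 an AP-1, 10 a C/EBP and 2 a κB match. A match describes these letters only and does not show that a factor binds there.

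The soluble inhibitors differed from each other. Il1rn (ENSMUSG00000026981, chromosome 2 from 24336853 to 24351494), which encodes IL-1Ra, had the largest fall of the 10 genes. It measured 169, 149 and 176 CPM in Cre- controls, against 71.7, 63.2 and 77.7 CPM in PTEC DN RAR mice. The gap between the genotypes was wider than the range within either, and the log2 fold change was -1.22 (SE 0.11, adjusted p = 0.000211 by edgeR). Il1rn passed in every alternative tried, with log2 fold changes from -1.33 to -1.15 when a library was left out and of -0.54 with scaling on Itgam (adjusted p = 0.0231 by edgeR). Its upstream starts give an intracellular form and its downstream starts the secreted form, and counts per gene do not separate them. Il18bp (ENSMUSG00000070427, chromosome 7 from 102014885 to 102018690), which encodes the IL-18 inhibitor, measured 28.6, 23.5 and 21.8 CPM in Cre- controls, against 18.5, 23.1 and 22.4 CPM in PTEC DN RAR mice. The genotypes overlapped, and the log2 fold change of -0.21 had a 95% interval from -0.52 to 0.10 (adjusted p = 0.252 by edgeR). Il18bp shares 2.6% of its exonic bases with Numa1 on the other strand.

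The balance of inhibitor to agonist was compared as ratios within each library, which do not depend on how libraries are scaled. Il1rn reads per Il1b read were 0.143, 0.134 and 0.183 in Cre- controls, against 0.0915, 0.102 and 0.118 in PTEC DN RAR mice. Each PTEC DN RAR library had a lower ratio than any control, by a mean of -0.55 on the log2 scale. Il18bp reads per Il18 read were 1.41, 1.24 and 1.35 in Cre- controls, against 1.71, 2.11 and 1.97 in PTEC DN RAR mice, so that each PTEC DN RAR library exceeded all controls, by 0.51 on the log2 scale. The inhibitor-to-agonist ratios of IL-1β and IL-18 thus lay in opposite directions between genotypes. For both, the exact permutation test (two-sided) gave p = 0.1, below which 3 mice against 3 cannot go, and 0.2 after adjustment over 6 ratios. Between the agonists, Il18 to Il1b differed by -0.05 on the log2 scale and Il1a to Il1b by -0.19, and both overlapped between genotypes (exact permutation p = 1 and 0.4). Neither was steady, since without Cre- control replicate 1 and 3 in turn Il1a to Il1b was -0.32 and -0.04, and Il18 to Il1b ranged from -0.11 (without PTEC DN RAR replicate 2) to 0.07 (without PTEC DN RAR replicate 1). With each library left out in turn, the difference stayed between -0.65 and -0.42 for Il1rn to Il1b and between 0.45 and 0.59 for Il18bp to Il18.

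**Figure D2:**
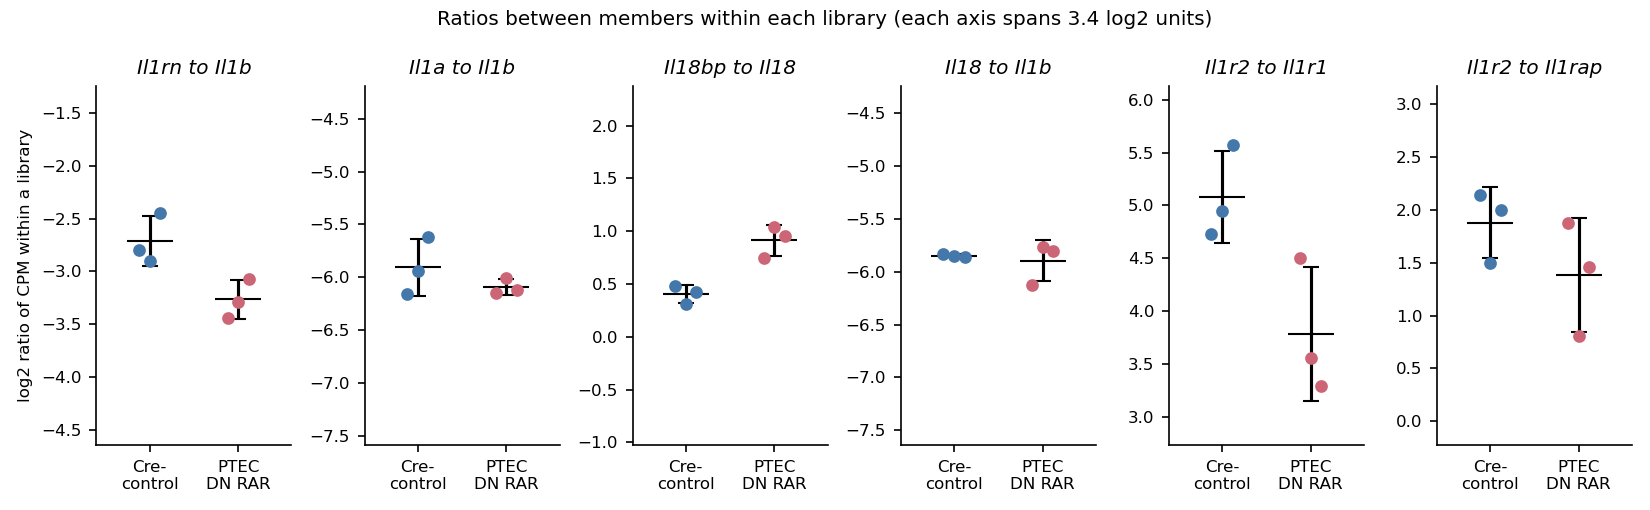
Each panel plots a log2 ratio of CPM between 2 genes within each library (pseudocount 0.5 CPM), with Cre- controls in blue, PTEC DN RAR in red, the mean as a long bar and the SD as an error bar. Il1rn to Il1b and Il1r2 to Il1r1 lay below, and Il18bp to Il18 above, all controls in the 3 PTEC DN RAR libraries, and the other ratios overlapped.

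Il1r2 (ENSMUSG00000026073), the decoy receptor gene, lies on chromosome 1 from 40074079 to 40125231, at the head of a stretch of 477.6 kb that also holds Il1r1, Il1rl1 and Il18rap. Its longest annotated coding sequence is 1230 bases, beside 1728 bases for Il1r1. Il1r2 measured 99.9, 85.4 and 132 CPM in Cre- controls, against 75.8, 41.0 and 53.3 CPM in PTEC DN RAR mice. The values spread more than those of the ligands but did not overlap, and the log2 fold change was -0.90 (SE 0.23, adjusted p = 0.0142 by edgeR). Il1r2 is known as a gene of neutrophils and monocytes, and markers of both moved with it. Of 12 neutrophil markers 7 were lower and 0 higher, beside 17.1% and 23.6% of all genes tested. Their summed level ranged from 628 to 1110 CPM in Cre- controls and from 340 to 494 CPM in PTEC DN RAR mice. Of 8 infiltrating monocyte markers 7 were lower and 0 higher, with sums from 3810 to 4110 CPM and from 1610 to 1670 CPM. The neutrophil markers Ly6g, Csf3r, Ngp, Camp and Ltf and the monocyte marker Ly6c2 overlapped between genotypes and were not called. The part of neutrophils and infiltrating monocytes in the lower levels of Il1r2, Il1b, Il1a, Il1rn, Il1rap and Il18, and of the pathway genes described below, was not tested. With scaling on Itgam the log2 fold change of Il1r2 was -0.24 (adjusted p = 0.315 by edgeR).

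Il1r1 (ENSMUSG00000026072, chromosome 1 from 40225080 to 40317257), the signaling receptor, was the gene with the fewest reads, from 68 to 236 per library. It measured 3.28, 2.28 and 2.28 CPM in Cre- controls, against 2.87, 3.04 and 5.001 CPM in PTEC DN RAR mice, where replicate 3 stood above the other libraries. The genotypes overlapped, and the log2 fold change of 0.47 had a 95% interval from -0.15 to 1.10 (adjusted p = 0.199 by edgeR). Without PTEC DN RAR replicate 3 it was 0.13, and with scaling on Itgam it was 1.18 (adjusted p = 0.00434 by edgeR). IL-1R1 is well expressed by endothelium and stroma, and markers of both are given beside it. All 8 endothelial markers were higher, beside 23.6% of all genes tested. Their sums ranged from 82.4 to 124 CPM in Cre- controls and from 243 to 298 CPM in PTEC DN RAR mice. Of 7 tested fibroblast and pericyte markers, 5 were higher by edgeR but only 2 by limma-voom. The mean log2 level of this list overlapped between genotypes, with a difference of 0.69 that ranged from 0.42 to 1.02 with a library left out. The sums of these markers ranged from 62.6 to 75.2 CPM and from 62.9 to 173 CPM. The lowest of the latter sums was that of PTEC DN RAR replicate 3, the library with the highest Il1r1. The part of these cells in the Il1r1 values was not tested. Il1r2 reads per Il1r1 read were 30.5, 37.4 and 57.7 in Cre- controls, against 26.4, 13.5 and 10.7 in PTEC DN RAR mice, lower in every PTEC DN RAR library by a mean of -1.30 on the log2 scale (two-sided exact permutation p = 0.1, adjusted p = 0.2). Il1r2 to Il1rap overlapped between genotypes, with a difference of -0.50 (exact permutation p = 0.2) that was -0.21 without PTEC DN RAR replicate 2 and -0.75 without PTEC DN RAR replicate 1.

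Il1rl1 (ENSMUSG00000026069, chromosome 1 from 40429570 to 40465415), which encodes ST2, was the only one of the 10 genes called higher. It measured 10.3, 14.6 and 13.4 CPM in Cre- controls, against 18.6, 23.4 and 15.1 CPM in PTEC DN RAR mice. All PTEC DN RAR libraries were above all controls, but by a narrow gap between PTEC DN RAR replicate 3 and Cre- control replicate 2. The log2 fold change was 0.58 (SE 0.19, adjusted p = 0.0394 by edgeR), and 23.6% of all genes tested were higher. The call was lost without Cre- control replicate 1 (adjusted p = 0.0995), Cre- control replicate 3 (0.104), PTEC DN RAR replicate 1 (0.0836) or PTEC DN RAR replicate 2 (0.131), all by edgeR, and with scaling on Itgam the log2 fold change was 1.22 (adjusted p = 5.5e-05). Mast cells, basophils, type 2 innate lymphoid cells and regulatory T cells are known for high ST2. Of the 9 mast cell and basophil markers, Fcer1a, Ms4a2, Mcpt8 and Tpsb2 were at most at 3 reads in every library, and Cpa3 was at 0 in all but 1 library. The list's sum, to which Hdc gave the most in each library, ranged from 82.4 to 105 CPM in Cre- controls and from 58.5 to 79.4 CPM in PTEC DN RAR mice, whereas the mean log2 level of its 3 tested genes was 0.44 higher and overlapped. By edgeR, Kit (log2 fold change 1.035, adjusted p = 0.00825) and Gata2 (1.16, adjusted p = 0.041) were higher and Hdc (-0.89, adjusted p = 0.005) was lower. Gata2 overlapped between genotypes. Of the 6 tested markers of T cells and type 2 innate lymphoid cells, 4 were higher and 1 was lower, beside 23.6% and 17.1% of all genes tested. Their sums ranged from 70.3 to 93.4 CPM and from 114 to 139 CPM, most of which came from Cd4. The part of these cells in the rise of Il1rl1 was not tested.

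Among the coreceptors, Il1rap (ENSMUSG00000022514, chromosome 16 from 26581704 to 26730117) encodes IL-1RAcP. It measured 22.2, 29.9 and 32.5 CPM in Cre- controls, against 20.2, 23.1 and 19.1 CPM in PTEC DN RAR mice, with Cre- control replicate 1 inside the range of PTEC DN RAR mice. That was a log2 fold change of -0.44 (SE 0.15, adjusted p = 0.0468 by edgeR), the weakest of the 7 calls. It did not pass with limma-voom (adjusted p = 0.0606) or without Cre- control replicate 2 or 3 or PTEC DN RAR replicate 1 or 3 (adjusted p from edgeR of 0.0897, 0.127, 0.116 and 0.099). Nor did it pass by edgeR with library size only (adjusted p = 0.0612), at least 10 counts in every library (0.0554) or replicate number in the model (0.0506). On pan-leukocyte scaling it was -0.24 (adjusted p = 0.275 by edgeR). Il18rap (ENSMUSG00000026068, chromosome 1 from 40515362 to 40551705), the IL-18 coreceptor gene, measured 14.0, 19.7 and 17.3 CPM in Cre- controls, against 15.0, 13.3 and 12.2 CPM in PTEC DN RAR mice. The genotypes overlapped, with a log2 fold change of -0.33 and a 95% interval from -0.68 to 0.01 (adjusted p = 0.109 by edgeR). Without Cre- control replicate 1 it was -0.46 (adjusted p = 0.0276 by edgeR). Of the NK cell markers, known for IL-18 receptors, 0 of 6 tested were called in either direction by edgeR, DESeq2 or limma-voom, and 0 had an unadjusted p under 0.05, and their sums ranged from 13.7 to 25.9 CPM in Cre- controls and from 15.9 to 17.0 CPM in PTEC DN RAR mice.

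Levels of different genes were compared as CPM per kb of annotated exon. In Cre- controls Il1b stood highest at 571 ± 59.6 CPM per kb (SD, n = 3), followed by Il1r2 at 55.4 ± 12.4, Il1rn at 29.8 ± 2.53 and Il18 at 17.9 ± 2.07. Il1a at 8.93 ± 0.778 and Il18bp at 8.14 ± 1.17 CPM per kb overlapped. Il18rap at 2.52 ± 0.42, Il1rap at 2.48 ± 0.469 and Il1rl1 at 1.85 ± 0.323 CPM per kb overlapped from neighbour to neighbour, and Il1r1 was lowest at 0.411 ± 0.0906. The decoy was therefore far above the signaling receptor and the coreceptors in these cells. In PTEC DN RAR mice the 4 highest genes kept this order, with Il1b at 361 ± 44.4, Il1r2 at 29.7 ± 9.26, Il1rn at 12.8 ± 1.32 and Il18 at 10.7 ± 0.276 CPM per kb. Il18bp at 7.05 ± 0.826 then stood above Il1a at 4.83 ± 0.439 without overlap. Il1rl1 at 2.76 ± 0.605 CPM per kb overlapped Il18rap at 2.00 ± 0.208, which overlapped Il1rap at 1.83 ± 0.184, and Il1r1 stayed lowest at 0.571 ± 0.186. Annotated exons of all transcripts of a gene were joined for its length, so a gene with long rare exons, such as Il1rap at 11360 bases, reads low on this scale.

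**Figure D3:**
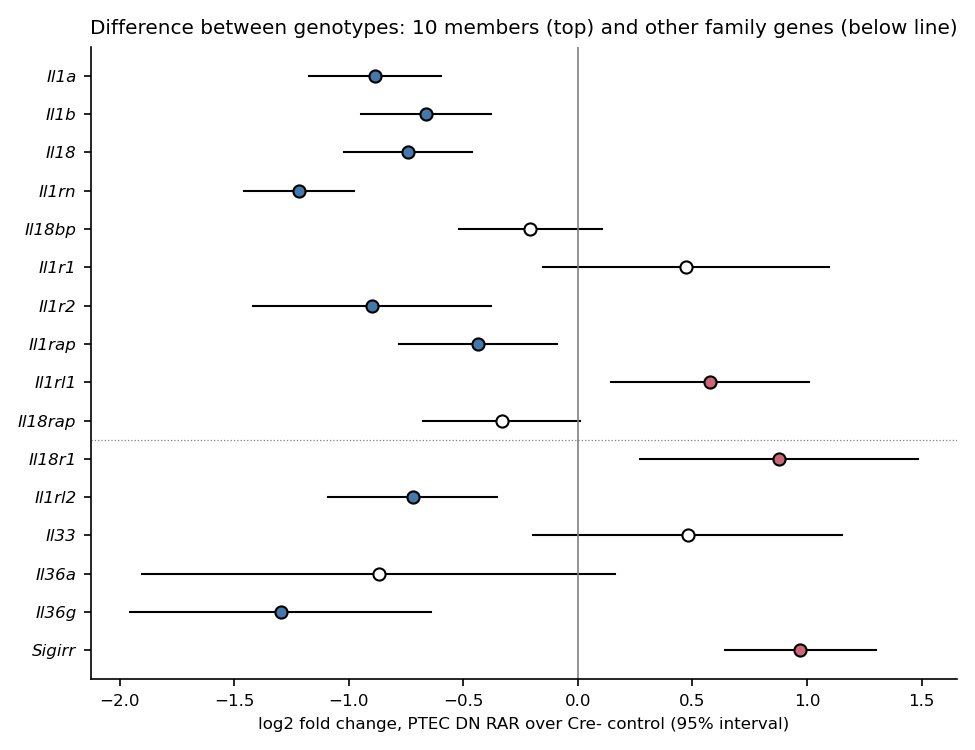
Points are log2 fold changes of PTEC DN RAR over Cre- control with 95% intervals from edgeR, for the 10 genes (above the dotted line) and the 6 tested genes of the wider family (below it). Blue points were lower and red points higher at an adjusted p under 0.05, and open points did not pass. Intervals of Il18bp, Il1r1, Il18rap, Il33 and Il36a cross 0, and those of Il1rn and Il36g reach furthest below 0 among the points that passed.

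Of 11 further genes of the IL-1 family, 6 had enough reads to be tested, of which 2 were lower and 2 higher, beside 17.1% and 23.6% of all genes tested, and their median log2 fold change was -0.12. The number higher was 1 when any library but Cre- control replicate 1 was left out (2433 to 3157 of all genes). With scaling on Itgam 0 were lower and 3 higher (139 and 9380 of all genes). Il36g, an epithelial and myeloid agonist of the IL-36 receptor, measured 5.97, 7.38 and 11.1 CPM in Cre- controls, against 4.52, 2.85 and 2.59 CPM in PTEC DN RAR mice (log2 fold change -1.30, SE 0.29, adjusted p = 0.00825 by edgeR). Il1rl2, the gene for that receptor, measured 14.9, 10.9 and 16.4 CPM and 8.65, 8.51 and 8.46 CPM (log2 fold change -0.72, SE 0.16, adjusted p = 0.00851). Both lay lower in every PTEC DN RAR library, whereas Il36a, another agonist of this receptor, overlapped between genotypes. Sigirr, a receptor of the family that restrains IL-1 and Toll-like receptor signaling, measured 9.12, 6.81 and 7.13 CPM and 14.1, 15.4 and 15.8 CPM (log2 fold change 0.97, SE 0.15, adjusted p = 0.00151 by edgeR). Il18r1, the ligand-binding chain of the IL-18 receptor, was near the low end of what could be tested, with 0.769, 0.705 and 0.634 CPM in Cre- controls, against 1.2, 1.49 and 1.21 CPM in PTEC DN RAR mice (log2 fold change 0.88, SE 0.27, adjusted p = 0.029 by edgeR). Sigirr is abundant in kidney epithelium, and all 8 markers of the thick ascending limb and distal tubule were higher in the same libraries, with sums from 1180 to 1610 CPM and from 4170 to 7990 CPM, whose part was not tested. Il33, the ST2 ligand, and Il36a had log2 fold changes of 0.48 and -0.87 that did not pass (adjusted p = 0.225 and 0.157 by edgeR).

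Of 11 genes that cleave or release the cytokines, 7 were lower and 0 higher, with a median log2 fold change of -0.39, beside 17.1% lower, 23.6% higher and a median of 0.04 over all genes tested. Nlrp3, the sensor of the main IL-1β inflammasome, measured 163, 162 and 181 CPM in Cre- controls, against 94.8, 84.9 and 90.4 CPM in PTEC DN RAR mice (log2 fold change -0.90, SE 0.09, adjusted p = 0.000284 by edgeR). Ninj1, which mediates membrane rupture in lytic cell death, measured 343, 185 and 264 CPM and 142, 103 and 143 CPM (log2 fold change -1.03, SE 0.22, adjusted p = 0.00661 by edgeR). Casp1, the protease of both precursors, named here after its values were seen, had a log2 fold change of -0.58 (SE 0.10, adjusted p = 0.00323 by edgeR), while the pore-forming gene Gsdmd, chosen in the same way, was -0.23 (SE 0.09, adjusted p = 0.0624). On pan-leukocyte scaling 3 of the 11 were lower and 0 higher (741 and 4773 of all genes), and with scaling on Itgam 0 were lower and 1 was higher by edgeR (139 and 9380 of all genes). In the same libraries 7 of 12 neutrophil and 7 of 8 infiltrating monocyte markers were lower, whose part was not tested. With DESeq2 9 were lower and 0 higher (3278 and 3548 of all genes). At an unadjusted p under 0.05 by edgeR 9 and 0 were found too, for which no count over all genes is given. Without Cre- control replicate 3 or PTEC DN RAR replicate 2 the number lower was 4 (1874 and 1885 of all genes).

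Of 18 genes of signaling downstream of the receptors, 3 were lower and 0 higher by edgeR, beside 17.1% and 23.6% of all genes tested, with a median log2 fold change of -0.13. The number lower was thus near the share over all genes. The adaptor Myd88 measured 121, 115 and 122 CPM in Cre- controls, against 92.9, 93.2 and 91.2 CPM in PTEC DN RAR mice (log2 fold change -0.37, SE 0.07, adjusted p = 0.00527 by edgeR). The others were Ube2n (-0.37, adjusted p = 0.029) and, named after its values were seen, Traf6 (-0.34, adjusted p = 0.0392), a ubiquitin-conjugating enzyme and the ligase it works with. On pan-leukocyte scaling 0 of the 18 were lower (741 of all genes), and with scaling on Itgam 0 were lower and 11 were higher (139 and 9380 of all genes). At an unadjusted p under 0.05 by edgeR 4 were lower and 0 higher, for which no count over all genes is given. With DESeq2 5 were lower and 0 higher (3278 and 3548 of all genes). The number lower was 5 without Cre- control replicate 1 (2824 of all genes). It was 1 without Cre- control replicate 2 or 3 or PTEC DN RAR replicate 1 (2275, 1874 and 1976 of all genes).

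Genes that IL-1 is known to induce, most of which also answer to tumor necrosis factor and bacterial products, were lower in 13 of 14 tested and higher in 1, with a median log2 fold change of -0.79, beside 17.1%, 23.6% and 0.04 over all genes tested. Ccl2, a monocyte chemoattractant, measured 155, 192 and 190 CPM in Cre- controls, against 41.3, 40.9 and 52.8 CPM in PTEC DN RAR mice, a log2 fold change of -1.99 (SE 0.13, adjusted p = 0.000145 by edgeR). Cxcl2, a neutrophil chemoattractant, measured 378, 409 and 467 CPM and 147, 101 and 167 CPM, with a log2 fold change of -1.60 (SE 0.18, adjusted p = 0.000455 by edgeR). Reads shared between similar CXC chemokine genes were not counted, so the level of Cxcl2 is uncertain to that extent. The exception, named after its values were seen, was Sod2, a mitochondrial superoxide dismutase, at 70.6, 61.9 and 68.2 CPM and 95.9, 105 and 110 CPM (log2 fold change 0.63, SE 0.09, adjusted p = 0.00126 by edgeR). On pan-leukocyte scaling 6 of the 14 were lower and 1 was higher (741 and 4773 of all genes), and with scaling on Itgam 3 were lower and 1 was higher (139 and 9380). With limma-voom 11 were lower (2589 of all genes), and with at least 10 counts in every library 10 (2386 of all genes). Without PTEC DN RAR replicate 1, 8 were lower (1976 of all genes). Among those called lower, Csf3 (0.0956 to 0.564 CPM) and Il6 (0.693 to 2.72 CPM), named after their values were seen, were near the low end of what could be tested. Il6 overlapped between genotypes. Sums of infiltrating monocyte markers (3810 to 4110 CPM against 1610 to 1670 CPM) and of neutrophil markers (628 to 1110 CPM against 340 to 494 CPM) moved with this list, and their part in it was not tested.

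**Figure D4:**
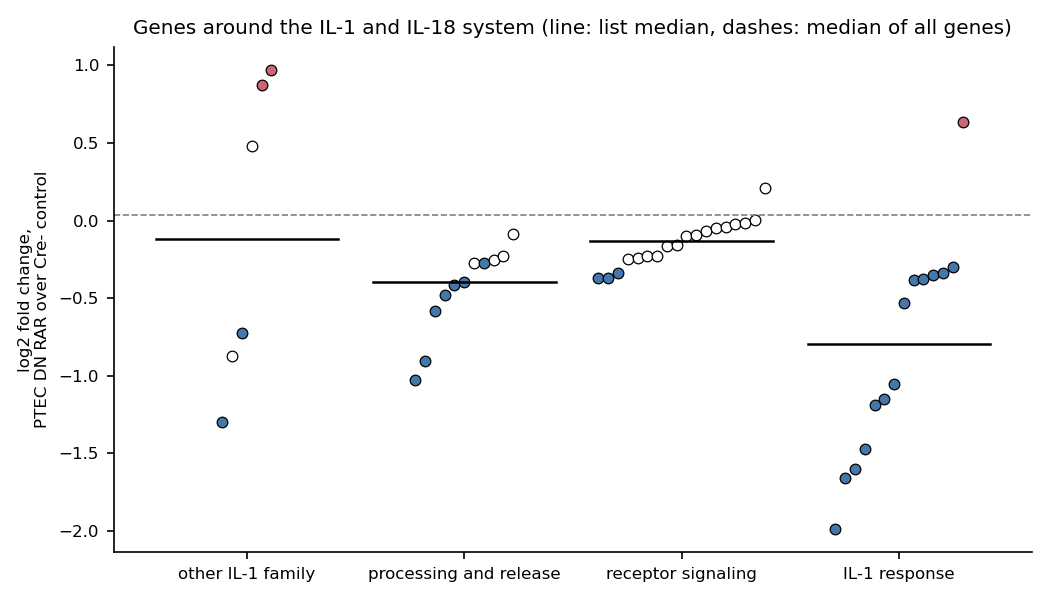
Each point is the log2 fold change of 1 tested gene in the 4 lists, filled where the adjusted p was under 0.05 (blue lower, red higher). Horizontal bars are list medians of -0.12, -0.39, -0.13 and -0.79, and the dashed line is the median of all genes tested at 0.04.

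Profiles over the 6 libraries were compared with those of other genes by the root mean square distance between log2 CPM values, each gene centred on its own mean. Of 10532 genes with a mean of at least 5 CPM, those closest to Il1b were Metrnl (distance 0.069), Psma5 (0.070), Rbm3 (0.085), Rpl14-ps1 (0.086) and G6pdx (0.089), with a median distance of 0.36 over all. Those closest to Il18 were Casp8 (0.073), Xdh (0.076), Sec24d (0.078), Stambpl1 (0.085) and Metrnl (0.091), with a median of 0.38. Rpl14-ps1 is a pseudogene whose reads may come from its parent gene. Distances over 6 libraries are descriptions, and the 3 libraries of a genotype share that genotype, so any gene that differed in a like way lies close.

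The other marker lists describe the makeup of the sorted cells. In each marker list here and above with 0 calls in a direction, that count was also 0 at an unadjusted p under 0.05 and with DESeq2 and limma-voom. Resident macrophage markers had the highest sums, from 25600 to 31000 CPM in Cre- controls and from 33400 to 46500 CPM in PTEC DN RAR mice, with 2 of 9 higher and 0 lower by edgeR, beside 23.6% and 17.1% of all genes tested. The called genes were Cd74, at 8044 to 10820 CPM and 15530 to 23760 CPM, and Cd81, both named after their values were seen, and the other 7 genes overlapped between genotypes. Without Cd74 the sums overlapped too, from 15500 to 20500 CPM and from 17800 to 22800 CPM. Dendritic cell markers had 3 of 8 higher and 1 lower, with sums from 94.3 to 139 CPM and from 109 to 140 CPM. B cell markers had 2 of 5 tested higher (1 with limma-voom and 4 with DESeq2), with sums from 38.1 to 47.3 CPM and from 50.4 to 77.9 CPM. The 26 pan-leukocyte reference genes had 9 lower and 0 higher, with sums from 16400 to 17200 CPM and from 13100 to 15400 CPM.

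**Figure D5:**
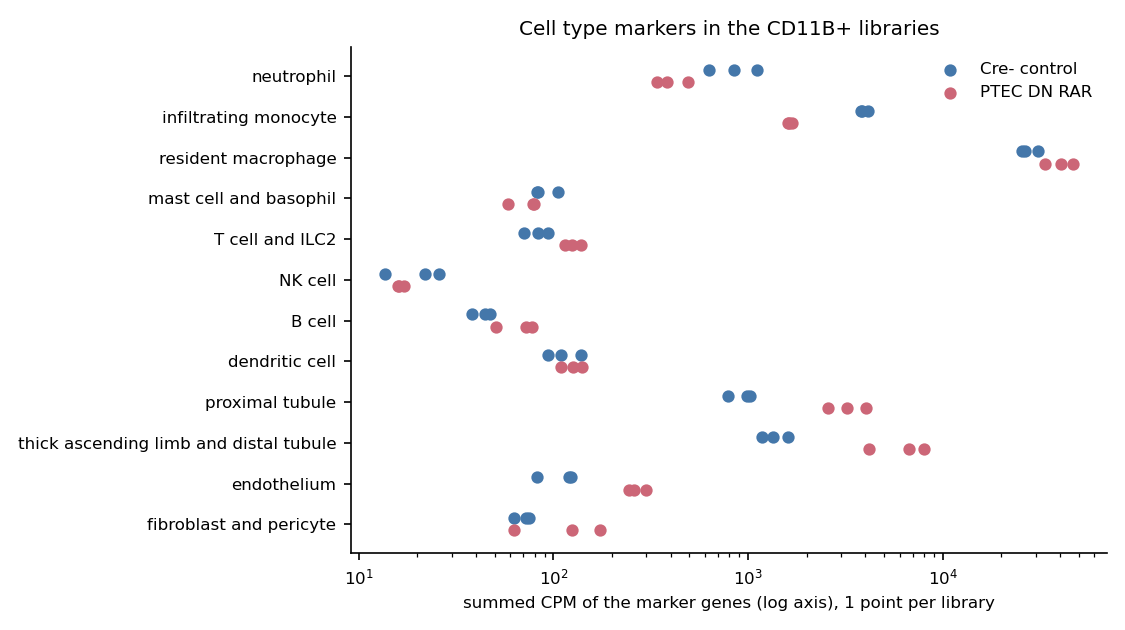
Points are the summed CPM of each marker list in 1 library, on a log axis, with Cre- controls in blue and PTEC DN RAR in red. Neutrophil, infiltrating monocyte, and mast cell and basophil sums of PTEC DN RAR libraries lay below all controls, those of resident macrophage, T cell, B cell, proximal tubule, distal tubule and endothelium lay above all controls (resident macrophage only with Cd74 included), and the other 3 overlapped.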

How the data were processed

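The authors sequenced RNA of CD11B+ kidney cells from 3 PTEC DN RAR and 3 Cre- control mice, 1 library per mouse. Per the submitters' processing notes, STAR 2.5.0a, HTSeq 0.6.1, edgeR, limma and GRCm38 were used. The authors deposited raw counts of reads per Ensembl gene, in which reads aligned to several places (42.93% to 47.75% of alignments per library) are left out, which lowers the level of genes that have close copies. The 5 summary lines were removed and repeated identifiers with equal counts were collapsed. Depth was 29318041 to 46517005 counts per library. Libraries of 1 genotype differed by a chi-square of at least 27.1 per degree of freedom, so each was counted as a separate sample.

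Genes kept by filterByExpr were tested with edgeR 4.0.16 (glmQLFit, glmQLFTest, R 4.3.3) after TMM scaling of the counts. P-values were adjusted by Benjamini-Hochberg over the 15440 genes, with a threshold of 0.05. The SE is the log2 fold change divided by the square root of F. The fit was first tested on simulated data. Within-library ratios were compared with two-sided exact permutation tests. Gene models are from GENCODE M21 (GRCm38) and upstream sequences from RefSeq (GRCm38.p6). Figures used Python 3.11 and matplotlib 3.10.9.

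The 10 genes and all lists were chosen with earlier results of these data known. Named are the 10 genes, the tested genes of the wider family, of each pathway list the 2 called genes of at least 5 CPM with the largest fold change, the 5 nearest profiles of Il1b and Il18, and Rara, Itgam, Ptprc and Adgre1. Replicate numbers join different mice. Correlations of deviations between libraries of the same number were -0.01, 0.21 and 0.03. Alternatives were DESeq2 1.42.0, limma-voom 3.58.1, other filters, library size, DESeq2 size factors, pan-leukocyte or Itgam scaling, the replicate block, other pseudocounts and leaving out each mouse.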

Additional observations from a re-analysis of the deposited data

How the results depend on the processing

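Il1a, Il1b, Il1rn, Il1r2 and Il18 stayed lower and past the threshold under both other tools, both other filters, library size, DESeq2 size factor and pan-leukocyte scaling, the replicate block and each left-out library. Il1rap, at -0.44, was -0.41 with limma-voom, -0.41 with at least 10 counts in every library, -0.44 with library size only, -0.24 on pan-leukocyte scaling and -0.43 with the replicate block, and no longer passed in any of these (adjusted p from 0.0506 to 0.275 by the tool named or edgeR). The cause was not tested. With a library left out, Il1rap ranged from -0.59 to -0.37, Il1rl1 from 0.40 to 0.68 and Il18rap from -0.46 to -0.26. Counts of lower and higher genes among the 10 then ranged from 5 to 7 and from 0 to 1, beside 1874 to 2824 and 2433 to 3699 over all genes. The number higher in the wider family was 1 or 2, the number lower in processing and release 4 to 8, in receptor signaling 1 to 5 and among IL-1 response genes 8 to 11. DESeq2 called 5 receptor signaling genes lower, beside 3278 of all genes. Without a filter, and with the replicate block, 1 gene of the wider family was higher (3571 and 3612 of all genes).

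Pan-leukocyte scaling moved the median of all genes from 0.04 to 0.23 (log2), with 741 genes lower and 4773 higher, and left 3 processing and release, 0 receptor signaling and 6 IL-1 response genes lower. Scaling on Itgam, added after the data were seen, gave -0.22 for Il1a, -0.01 for Il1b, -0.24 for Il1r2 and -0.08 for Il18, none of which passed, 0.23 for Il1rap, and 1.18 for Il1r1, which passed, with 1 of the 10 lower and 2 higher. A single gene sets that scale, so its own error enters every value.

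Replicate numbers were shared by different mice, and only Cre- control replicate 2 deviated most like the PTEC DN RAR library of its own number. With the replicate block, 5 of the 10 genes were lower and 1 higher, beside 2606 lower and 3612 higher over all genes, and Il1rap was the only call among the 10 that changed. With 3 mice a group, an exact permutation test cannot fall below 0.1. The p-values from edgeR set the genotype difference against variation between mice, which is estimated with information shared across genes.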
